A study of Mus musculus with 6 samples.

Results

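Hypothyroid and control tibialis anterior muscle (TAM) were compared at 14 days after injury (14 dpi), gene by gene, in 4 sets of single cells. The study fed male mice, 3 to 5 months old, an iodine-deficient diet that contained propylthiouracil (PTU), a drug that blocks thyroid hormone synthesis, or a matched control diet, and injured the right TAM with cardiotoxin, a snake venom toxin that destroys muscle fibres. All mice of both diets, on a B6;129 background, carried the cell cycle reporter allele tm1(Fucci2aR)Jkn at the Gt(ROSA)26Sor locus. According to the study, the mice used for transcriptomic work lacked the *Pax7*-driven Cre recombinase. By the study's design all were injured, so by the labels no uninjured or untreated muscle enters the comparison at this day. Cells shared with uninjured control muscle, described below, leave this unchecked. Cells of 3 mice were pooled into 1 library for each diet, after red blood cells had been lysed and dead cells removed. There is no replicate library, so no test between the diets was made and no p-value is given. All ranges in parentheses after a ratio, level or share are 95% intervals of counting error and say nothing of the spread between mice.

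The comparison holds 4944 cells, 3294 from control and 1650 from hypothyroid muscle, of the 11207 cells that stand in the first run of columns of the 6 libraries of the study. The cell sets were chosen by detection of marker RNA, counted as unique molecular identifiers (UMIs, each standing for a captured RNA molecule). Pdgfra+Dcn+ cells held at least 1 UMI of *Pdgfra* and 1 of *Dcn*, Cdh5+ cells at least 1 UMI of *Cdh5*, and Lyz2+ cells at least 1 UMI of *Lyz2*. The fourth set was all cells. The sets may overlap. Of the hypothyroid cells, 1152 also stand, with the same values, in the deposited file of uninjured control muscle, and 498 stand in no other file, while no control cell was shared. Whether the first run of columns belongs to the muscle named on the label could not be checked, so the counts of genes are also given with the hypothyroid pool reduced to the 498 cells, and so are the single genes on which a statement rests.

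Thyroid hormone acts through nuclear receptors that switch target genes on or off, and it sets the fibre type, energy use and repair of skeletal muscle. Regeneration after a toxin injury depends on cells other than the muscle stem cells: fibro-adipogenic progenitors (FAPs), which express *Pdgfra* and *Dcn* and make matrix and signals, endothelial cells, which express *Cdh5* and rebuild capillaries, and macrophages, which express *Lyz2*, clear debris and release growth factors. In the usual course these cells pass from an inflammatory to a repair state and then settle back towards rest.

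Pdgfra+Dcn+ cells made up 33.0% (31.4–34.6) of control and 38.9% (36.5–41.3) of hypothyroid cells. Cdh5+ cells made up 25.9% (24.4–27.5) of control and 18.9% (17.0–20.9) of hypothyroid cells. Lyz2+ cells were 8.04% (7.14–9.03) of control and 20% (18.1–22) of hypothyroid cells, 2.49 times as many. Detection of a single UMI depends on depth, and the hypothyroid cells were deeper, with a median of 6863.5 UMIs per cell against 3979.5. When every cell was thinned to 1000 UMIs, which keeps 2860 control and 1522 hypothyroid cells, the shares were 14.8% against 13.1% for Pdgfra+Dcn+ cells, 17.8% against 11.6% for Cdh5+ cells and 5.03% against 12.5% for Lyz2+ cells. At equal depth the intervals of the Pdgfra+Dcn+ shares overlapped, those of the other sets did not, and a share of cells in a suspension cannot tell gain of one cell type from loss of another.

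The markers of each set were checked. Among Pdgfra+Dcn+ cells, the collagen gene *Col3a1* was found in 98.5% of control and 95.2% of hypothyroid cells and the leukocyte gene *Ptprc* in 1.10% and 1.71%. The endothelial gene *Pecam1* was found in 10.9% and 8.26% of them, and at least 1 of 10 myeloid markers in 14.4% and 31.9%. At least 1 of 10 fibro-adipogenic markers was also found in 97.5% and 92.3% of Cdh5+ cells. The Pdgfra+Dcn+ set is therefore named by its gate too. Among Cdh5+ cells, the endothelial adhesion gene *Pecam1* was found in 75.9% and 82.7%, and *Dcn*, a FAP gene, in 48.9% and 32.7%. The Lyz2+ cells did not behave as a pure myeloid set: *Ptprc* was found in 28.7% and 36.1% of them, the signalling adaptor *Tyrobp* in 38.1% and 45.2%, and *Dcn* in 63.0% and 53.3%. Of the Lyz2+ cells, 127 of 265 control and 150 of 330 hypothyroid cells held a single *Lyz2* UMI, so they are named here by the gate and not as macrophages. A stricter gate of at least 10 *Lyz2* UMIs, which leaves 93 and 132 cells, is given beside the results it changes.

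RNA of other cell types was present in every set and differed between the libraries. The summed level of 7 muscle fibre genes was lower in hypothyroid muscle in all 4 sets, with all 7 genes past 2-fold each time: in CPM (UMIs of a gene in the pooled cells, scaled to the usual common total) it was 8044 for the control and 2016 for the hypothyroid Pdgfra+Dcn+ cells, 9398 and 2740 CPM in Cdh5+ cells, and 9132 and 2748 CPM in Lyz2+ cells. Taken as a group, with RNA of any member counted, these genes were found in 100% of the Pdgfra+Dcn+ cells of both libraries. The fibre gene *Pvalb* by itself was found in 939 of 1087 control and 231 of 642 hypothyroid Pdgfra+Dcn+ cells. All 4 haemoglobin genes listed summed to 630 against 15.3 CPM in Pdgfra+Dcn+ cells, control first, 2212 and 1362 CPM in Cdh5+ cells, and 3331 and 274 CPM in Lyz2+ cells. In control Pdgfra+Dcn+ cells the richest cell of each of these genes held 47.2% to 49.5% of its UMIs. In the other direction, 10 myeloid markers summed to 75.2 against 215 CPM in Pdgfra+Dcn+ cells, to 325 and 2420 CPM in Cdh5+ cells, and to 5817 and 11373 CPM in Lyz2+ cells. Mural cell genes (pericytes and smooth muscle) summed to 339 and 102 CPM in Pdgfra+Dcn+ cells, 3806 and 2538 CPM in Cdh5+ cells, and 1389 and 601 CPM in Lyz2+ cells. The part of this RNA in the gene differences that follow was not tested, and fewer cells of a type cannot be told apart from less RNA per cell in a set that mixes types.

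**Figure D1:**
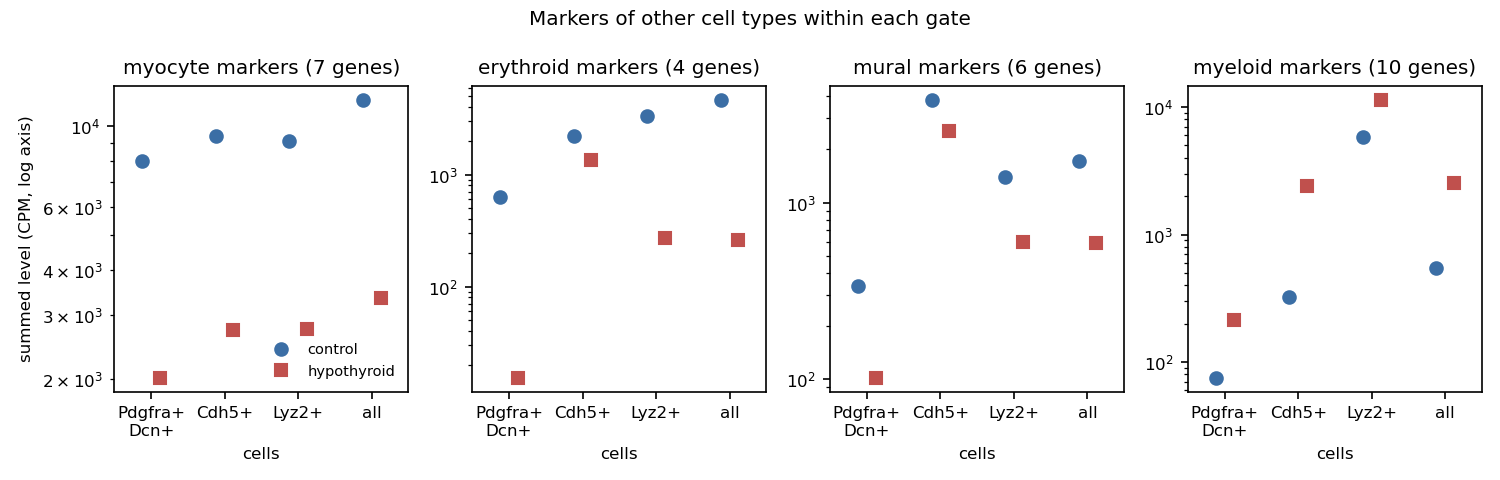
Summed level, in CPM of the pooled set, of muscle fibre, haemoglobin, mural and myeloid marker genes in the 4 cell sets of control and hypothyroid muscle at 14 dpi. Muscle fibre RNA was lower in hypothyroid muscle in every set (8044 to 2016 CPM in Pdgfra+Dcn+ cells) and myeloid RNA higher in every set (325 to 2420 CPM in Cdh5+ cells).

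A gene was counted as higher or lower when its ratio of hypothyroid over control CPM was at least 2 or at most 0.5 and it held at least 50 UMIs over both pools. Among Pdgfra+Dcn+ cells, 9964 genes reached 50 UMIs, of which 126 (1.26%) were higher and 618 (6.20%) lower in hypothyroid muscle. In Cdh5+ cells it was 216 of 9463 genes (2.28%) higher and 465 (4.91%) lower. In Lyz2+ cells 236 of 7707 genes (3.06%) were higher and 311 (4.04%) lower. In all cells together 443 of 11928 genes (3.71%) were higher and 712 (5.97%) lower. The balance depends on the summary, and it turned over when each cell's log2(CPM + 1) was averaged. There were then 1130 higher and 86 lower genes in Pdgfra+Dcn+ cells and 462 and 38 in Lyz2+ cells. When each cell's CPM was averaged without the log, Pdgfra+Dcn+ cells held 123 higher and 645 lower genes. After thinning, Lyz2+ cells held 55 and 49 among genes that reached 50 UMIs in the thinned pools. Of the genes called at full depth in Lyz2+ cells, 131 of 236 higher and 184 of 311 lower stayed past 2-fold after thinning. The median log2 ratio of all genes counted was -0.10 in Pdgfra+Dcn+ cells, -0.04 in Cdh5+ cells, -0.09 in Lyz2+ cells and -0.09 in all cells. When the hypothyroid pool was reduced to the cells found in no other file, 94 of the 126 higher and 469 of the 618 lower genes of Pdgfra+Dcn+ cells stayed past 2-fold, as did 170 of 216 and 351 of 465 in Cdh5+ cells, 182 of 236 and 267 of 311 in Lyz2+ cells, and 347 of 443 and 601 of 712 in all cells.

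**Figure D2:**
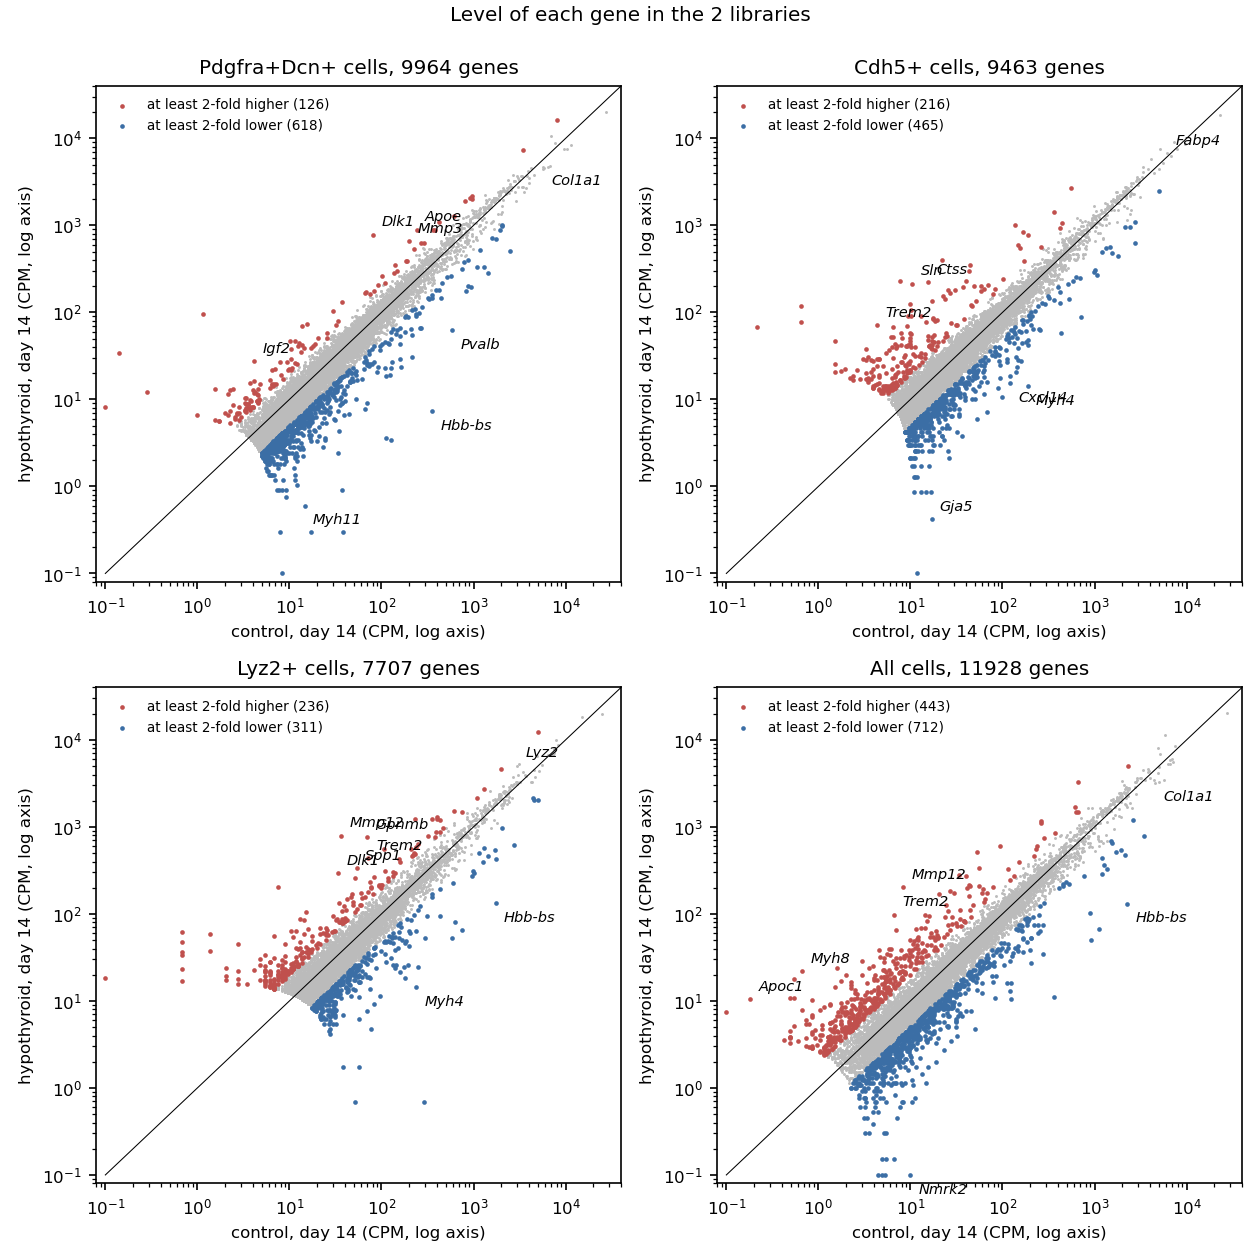
Level of each gene in control (horizontal) and hypothyroid muscle (vertical) at 14 dpi, in CPM on log axes, 1 panel for each cell set and 1 point for each gene with at least 50 UMIs; genes at 0 are drawn at 0.1 CPM and coloured points are at least 2-fold apart. By summed UMIs lower genes outnumbered higher ones, 618 to 126 in Pdgfra+Dcn+ cells and 311 to 236 in Lyz2+ cells, and by means of log2 values they did not, at 86 to 1130 and 38 to 462.

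Among genes with UMIs in at least 20 hypothyroid Pdgfra+Dcn+ cells, the interval furthest above 1 was that of *Dlk1*, which encodes a membrane protein of the Delta family that holds back adipocyte differentiation and that is silenced in most adult tissues. The gene lies on chromosome 12 (ENSMUSG00000040856.18). *Dlk1* stood at 81.7 CPM in the control pool and 783 CPM in the hypothyroid pool, 9.58-fold higher (8.79–10.5), and its RNA was found in 100 of 1087 control and 266 of 642 hypothyroid cells. No single cell held more than 8.70% of its UMIs in either pool, and in the cells found in no other file the ratio was 9.87. *Igf2*, a fetal growth factor, followed the same direction, at 4.12 and 27.7 CPM, 6.71-fold higher (4.52–10.3), in 24 control and 103 hypothyroid cells. The cell cycle inhibitor *Cdkn1c* stood at 268 and 624 CPM, 2.33-fold higher (2.21–2.46), and the long noncoding RNA *H19* at 141 and 355 CPM, 2.51-fold higher (2.33–2.71). These genes are expressed mostly before birth and share parental imprinting, and they were spread over many cells.

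Other genes named for their distance from 1 in Pdgfra+Dcn+ cells were of mixed function. *Apoe*, which carries lipid, was found in 425 control and 415 hypothyroid cells, at 241 and 892 CPM, 3.70-fold higher (3.51–3.91). *Mmp3*, a stromelysin that cuts matrix proteins, stood at 201 and 659 CPM, 3.28-fold higher (3.09–3.49), although it was found in only 135 and 108 cells. *C1qtnf3*, a secreted C1q-related protein, stood at 36.8 and 130 CPM, 3.54-fold higher (3.08–4.08). The arginine transporter gene *Slc7a2* (11.5 and 46.5 CPM, 4.04-fold), the adhesion receptor *Adgra1* (15.4 and 73.6 CPM, 4.79-fold) and *Ly6h* (2.27 and 12.8 CPM, 5.62-fold) completed the group with *Ccl5*, a T-cell chemokine, at 10.1 and 47.2 CPM, 4.68-fold higher, whose ratio was 2.04 without the shared cells. Sarcolipin, *Sln*, a brake on the calcium pump of muscle, stood at 13.8 and 69.8 CPM, 5.06-fold higher (4.06–6.37), with 34.3% of its hypothyroid UMIs in 1 cell and a ratio of 8.65 without the shared cells. Genes held by a few cells gave the most extreme ratios and were kept out by the rule that asks for 20 cells: the neuropeptide gene *Npy* was at 1.14 and 94.9 CPM, but in 12 hypothyroid cells of which 1 held 58.6% of the UMIs, and its ratio was 3.02 without the shared cells.

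The genes named on the lower side were mostly genes of blood, muscle fibre and smooth muscle. Haemoglobin *Hbb-bs* stood at 352 CPM in the control and 7.37 CPM in the hypothyroid pool of Pdgfra+Dcn+ cells, a ratio of 0.0209 (0.0154–0.0278). A single cell held 47.2% of its control UMIs, and in cells of 1 gate only the ratio was 0.0493. The calcium buffer of fast fibres, *Pvalb*, stood at 589 and 62.7 CPM, a ratio of 0.107 (0.0961–0.118). The smooth muscle myosin *Myh11* stood at 14.6 and 0.602 CPM, a ratio of 0.0411, with 35.0% of its control UMIs in 1 cell. Since the summed fibre, blood and mural markers were lower in the same cells, their part in these differences was not tested. Of the other genes, *C1qtnf1*, a secreted relative of adiponectin, was at 33.8 and 2.41 CPM, a ratio of 0.0711 (0.0400–0.118), in 174 control and 15 hypothyroid cells. *Engase*, a cytosolic enzyme that trims N-glycans, held 122 control and 2 hypothyroid UMIs, a ratio of 0.0173 (0.00208–0.0640). The matrix metalloproteinase gene *Mmp27* held 56 and 2 UMIs, a ratio of 0.0378 (0.00447–0.143), and *Nmrk2*, a nicotinamide riboside kinase of muscle, 59 and 0 UMIs, at most 0.0538 of the control level when a count of 0 is allowed 3.

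**Figure D3:**
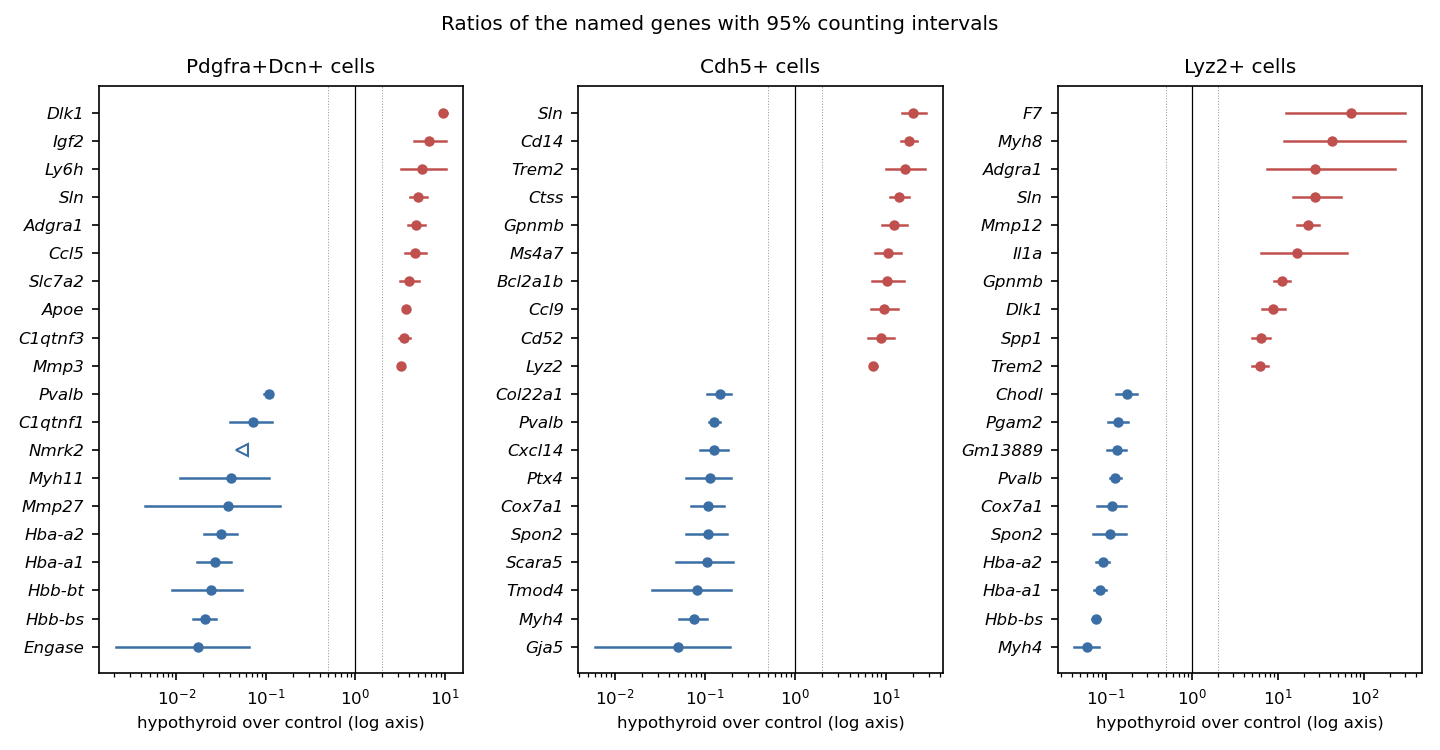
Ratio of hypothyroid over control CPM, on a log axis, of the 10 genes named on each side in Pdgfra+Dcn+, Cdh5+ and Lyz2+ cells, with bars for 95% intervals of counting error and open triangles for bounds from a count of 0. In Pdgfra+Dcn+ cells the higher genes lay between *Mmp3* at 3.28 and *Dlk1* at 9.58, while *Hbb-bs* was at 0.0209, with 47.2% of its control UMIs in 1 cell.

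Matrix genes of Pdgfra+Dcn+ cells did not move as a block. Of 16 genes of injury matrix, 4 were higher and none lower, where 1.26% and 6.20% of all genes were higher and lower. The list had a median log2 ratio of 0.23 beside -0.10 for all genes. Periostin, *Postn*, a matrix protein of healing tissue, stood at 808 and 1910 CPM, 2.36-fold higher (2.29–2.44). Thrombospondin, *Thbs1*, which activates latent TGF-β, stood at 958 and 2029 CPM, 2.12-fold higher (2.06–2.18), and tenascin, *Tnc*, at 83.2 and 177 CPM, 2.13-fold higher (1.92–2.35). *Lrrc15*, a marker of activated fibroblasts, was 2.19-fold higher (1.51–3.23), but 1.12-fold without the shared cells, and *Tnc* was then 1.65-fold and *Thbs1* 1.92-fold. Members of the same list that were abundant in both pools were below 1: *Sparc*, a collagen chaperone, at 6795 and 4786 CPM (0.704) and fibronectin, *Fn1*, at 3539 and 2432 CPM (0.687).

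None of the 10 fibrillar and fibril-associated collagens passed 2-fold in Pdgfra+Dcn+ cells, where 1.26% and 6.20% of all genes were higher and lower. These collagens had ratios from 0.538 to 1.09 and a median log2 ratio of -0.30. The main collagen genes of scar and tendon were among them, with *Col1a1* at 5662 and 4729 CPM (0.835, 0.823–0.848) and *Col3a1* at 11361 and 8504 CPM (0.749, 0.741–0.757). Of 15 basement membrane genes, 2 were lower, *Col15a1*, which links the basement membrane to the interstitium, at 262 and 66.2 CPM (0.253, 0.227–0.281), and the laminin chain *Lamb2* at 231 and 109 CPM (0.471, 0.431–0.514). Elastin, *Eln*, stood at 354 and 147 CPM (0.416, 0.386–0.448) and the calcification inhibitor *Mgp* at 1931 and 882 CPM (0.457, 0.443–0.471), the 2 lower genes of 11 in the elastic fibre list. Without the shared cells *Eln* was at 0.225 and *Mgp* at 0.637, short of 2-fold. The procollagen peptidase gene *Adamts2* was at 235 and 91.3 CPM (0.389, 0.354–0.427) and the crosslinking oxidase gene *Loxl3* at 29.1 and 11.3 CPM (0.387, 0.293–0.507). The gelatinase *Mmp2* and the membrane-bound *Mmp14* lay near 1, with *Mmp2* at 1051 and 1073 CPM (1.02, 0.989–1.06) and *Mmp14* at 271 and 228 CPM (0.838, 0.783–0.897).

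FAPs send chemokines that call leukocytes to the wound. In Pdgfra+Dcn+ cells 3 of 11 stromal chemokine genes were higher and 1 lower, where 1.26% and 6.20% of all genes were higher and lower. The list had a median log2 ratio of 0.62. *Ccl2* and *Ccl7*, which attract monocytes, stood at 8145 and 16319 CPM (2.0, 1.98–2.02) and at 3416 and 7330 CPM (2.15, 2.11–2.18). *Cxcl5*, a neutrophil attractant, stood at 915 and 2056 CPM (2.25, 2.18–2.31), and the related *Cxcl1* at 6930 and 10651 CPM (1.54, 1.52–1.55). *Ccl2* lies at the 2-fold limit, and its ratio was 2.03 in the cells found in no other file. The homeostatic chemokine *Cxcl12* was at 180 and 145 CPM (0.806, 0.741–0.877), and *Cxcl13*, the lower gene, at 6.11 and 2.11 CPM in 7 and 6 cells. Of 11 genes of the IL-6 family 2 were higher, *Lif*, a cytokine that supports myoblast growth, at 66.4 and 169 CPM (2.54, 2.28–2.84) and *Il11*, a profibrotic cytokine, at 34.0 and 79.0 CPM (2.32, 1.99–2.72). Without the shared cells *Lif* was 1.92-fold and *Il11* 1.2-fold higher. *Il6* itself was at 186 and 301 CPM (1.62, 1.51–1.73), and 1.02 without the shared cells.

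Growth factor binding proteins split in both directions. *Igfbp3*, the main IGF carrier of serum, stood at 377 and 880 CPM, 2.34-fold higher (2.23–2.45), while *Igfbp5*, a carrier bound to matrix, stood at 2047 and 1017 CPM (0.497, 0.483–0.511) and *Igfbp6*, which prefers IGF-II, at 2016 and 985 CPM (0.488, 0.474–0.503). *Igf1*, the growth factor that FAPs and macrophages supply to fibres, was at 422 and 298 CPM (0.705, 0.666–0.747). Without the shared cells *Igfbp5* was at 0.532, short of 2-fold. The VEGF receptor ligand *Pgf* was at 67.1 and 172 CPM, 2.57-fold higher (2.30–2.86). Of 19 growth factor, Wnt and BMP signal genes none was higher and 4 were lower, beside 1.26% and 6.20% of all genes. The Wnt modulator *Sfrp2* stood at 66.7 and 7.82 CPM (0.117, 0.0863–0.156), *Wnt5a*, a noncanonical Wnt ligand, at 32.6 and 13.1 CPM (0.402, 0.310–0.517), *Ccn5* at 9.95 and 2.41 CPM (0.242) and the Wnt inhibitor *Wif1* at 9.24 and 2.56 CPM (0.277).

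Genes that mark FAP states were mostly below 1. *Gdf10*, a TGF-β family ligand of resting FAPs, stood at 44.5 and 6.77 CPM (0.152, 0.109–0.208) and *Cd34*, a surface sialomucin of progenitors, at 563 and 263 CPM (0.467, 0.442–0.495). *Apod*, a lipocalin, was the higher gene among 14 at 958 and 2171 CPM (2.27, 2.20–2.33), and 1.99 without the shared cells. *Pi16*, a marker of universal fibroblasts, was at 1086 and 681 CPM (0.627, 0.605–0.651), *Ly6a* (Sca-1) at 986 and 664 CPM (0.673, 0.648–0.699), *Smoc2*, a matricellular protein of interstitial FAPs, at 607 and 490 CPM (0.807, 0.771–0.845) and *Dpp4* at 81.4 and 72.8 CPM (0.894, 0.790–1.01). *Pdgfra* and *Dcn*, the genes of the gate, were at 410 and 341 CPM and at 9532 and 7552 CPM. Tendon markers were not uniform, with *Scx* at 14.2 and 2.71 CPM (0.190), *Tnmd* at 146 and 62.3 CPM (0.428) and *Thbs4* at 602 and 1019 CPM (1.69).

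RNA of immediate early genes appears within minutes of stress or growth factor and also during tissue digestion. Of 18 such genes, none was higher and 5 were lower in Pdgfra+Dcn+ cells, beside 1.26% and 6.20% of all genes. The list had a median log2 ratio of -0.71. *Fos* and *Jun*, the partners of the AP-1 factor, stood at 1569 and 711 CPM (0.454, 0.438–0.469) and at 1175 and 521 CPM (0.444, 0.426–0.462). *Klf2*, *Klf4* and *Jund* were at 0.444, 0.478 and 0.480, and *Egr1* at 987 and 532 CPM (0.539, 0.518–0.561). The chaperone gene *Hspa1a* was at 35.8 and 10.1 CPM (0.281, 0.212–0.370). In Cdh5+ cells none of the 18 passed 2-fold and the median log2 ratio was 0.14, and in Lyz2+ cells *Jun* and *Klf2* were lower and the median was -0.64, although *Jun* went from 0.440 to 0.543 without the shared cells.

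Genes of energy use and translation shifted together by less than 2-fold. In Pdgfra+Dcn+ cells none of 37 nuclear oxidative phosphorylation genes passed 2-fold, with ratios from 0.509 to 1.03 and a median log2 ratio of -0.43. The 13 mitochondrially encoded genes had a median of -0.38 and ratios from 0.649 to 1.02. All 77 cytosolic ribosomal protein genes lay above 1, from 1.04 to 1.36, with a median of 0.22. In Cdh5+ cells the medians were -0.42, -0.13 and 0.21, and in Lyz2+ cells -0.14, -0.13 and 0.18, in the same order. CPM are shares of one total, so a shift of ribosomal genes cannot be told apart from a loss of other RNA.

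Of 12 thyroid hormone receptor, deiodinase, transporter and cofactor genes none passed 2-fold in Pdgfra+Dcn+ cells, where the receptor gene *Thra* stood at 87.3 and 63.8 CPM (0.731, 0.644–0.828) and *Thrb* at 8.96 and 5.57 CPM (0.621, 0.403–0.947). Among 11 target genes, *Atp2a1*, the calcium pump of fast fibres, was lower at 158 and 29.2 CPM (0.184, 0.157–0.215), beside the lower fibre markers in the same cells. *Klf9*, a transcription factor induced directly by the hormone in many tissues, was at 823 and 670 CPM (0.814, 0.783–0.847), and *Hr*, a corepressor that the hormone induces, at 16.9 and 8.57 CPM (0.507, 0.363–0.701). In all cells 4 of 14 target genes were lower and 1 higher, where 5.97% and 3.71% of all genes were lower and higher. The target genes had a median log2 ratio of -0.43 beside -0.09 for all genes. The lower ones were *Atp2a1* (0.251, 0.232–0.270), the mitochondrial coactivator *Ppargc1a* at 3.70 and 1.14 CPM (0.309, 0.163–0.550), the glucose transporter *Slc2a4* at 4.43 and 1.37 CPM (0.310, 0.174–0.524) and *Hr* at 14.7 and 7.24 CPM (0.493, 0.384–0.627). *Ucp2* was the higher one at 31.5 and 79.1 CPM (2.52, 2.26–2.80). Of 14 receptor and cofactor genes *Rxrg*, a partner of the hormone receptors that muscle expresses, was lower at 3.22 and 0.762 CPM (0.237, 0.107–0.470), on 53 and 10 UMIs. Muscle fibre markers were lower in the same cells, and their part in these differences was not tested.

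**Figure D4:**
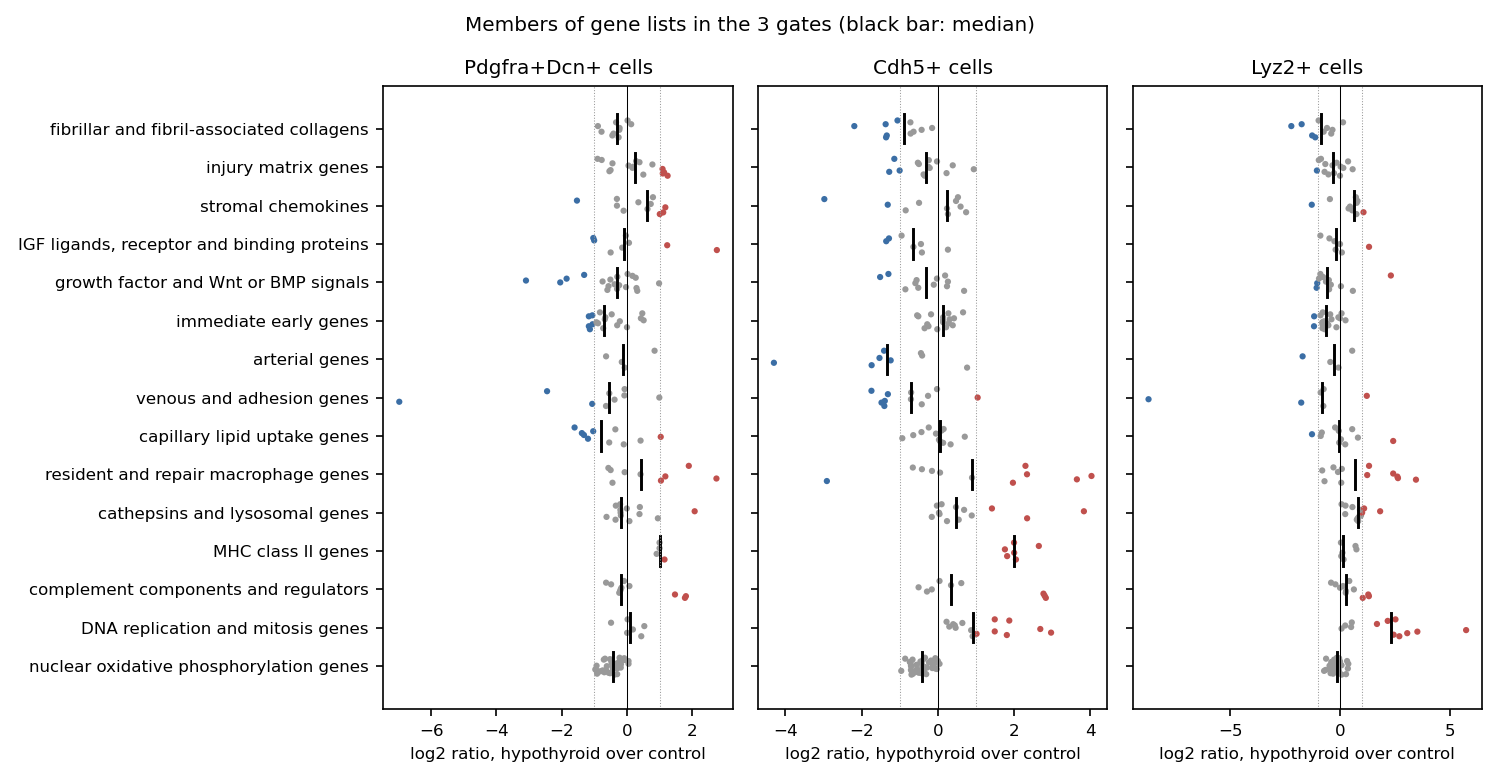
Log2 ratio of hypothyroid over control CPM of the members of 15 gene lists in Pdgfra+Dcn+, Cdh5+ and Lyz2+ cells, 1 point for each gene, with a black bar at the list's median and dotted lines at 2-fold. Arterial genes had their median at -1.33 in Cdh5+ cells, immediate early genes at -0.71 in Pdgfra+Dcn+ cells, and MHC class II genes at 2.0 in Cdh5+ cells, and the horizontal scales of the panels differ.

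Among the higher genes of Pdgfra+Dcn+ cells, promoters were available for 89, with 129 start sites. The 250 bases before each start were searched on both strands for TGACTCA, the AP-1 site, and AGGTCA, the hexamer that nuclear receptors such as the thyroid hormone receptor bind. The AP-1 letters were found before 9.30% of the starts of higher genes, 3.65% of those of lower genes and 3.38% of those of all genes with at least 50 UMIs, against 4.46% of all 32851 starts in the RefSeq table. AGGTCA was found before 14.0%, 12.8%, 10.4% and 14.0% of them. Single promoters were read for *Dlk1*, *Mmp12*, *Gpnmb*, *Trem2*, *Mmp3*, *Spp1*, *Igf2*, *Npy* and *Apoe*. AP-1 letters stood before *Mmp3* and the second start of *Mmp12*, AGGTCA before that start of *Mmp12*, *Trem2* and the first start of *Igf2*, and neither before *Dlk1*, *Gpnmb*, *Spp1*, *Npy*, *Apoe* or the first start of *Mmp12*. Those of *Mmp3*, *Mmp12* and *Trem2* are printed to show the matches and that of *Dlk1* as a leading gene without one, a choice made with the matches known. Sequences are from RefSeq on GRCm38.p6, 5′ to 3′ on the plus strand, with motif matches in capitals.
*Mmp3*, chr9:7445572-7445821, plus strand: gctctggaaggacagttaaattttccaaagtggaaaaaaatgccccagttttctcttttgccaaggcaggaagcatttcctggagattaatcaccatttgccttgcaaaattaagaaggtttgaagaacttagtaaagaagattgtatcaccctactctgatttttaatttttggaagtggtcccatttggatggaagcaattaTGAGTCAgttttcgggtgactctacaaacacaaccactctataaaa
*Mmp12*, chr9:7347124-7347373, plus strand: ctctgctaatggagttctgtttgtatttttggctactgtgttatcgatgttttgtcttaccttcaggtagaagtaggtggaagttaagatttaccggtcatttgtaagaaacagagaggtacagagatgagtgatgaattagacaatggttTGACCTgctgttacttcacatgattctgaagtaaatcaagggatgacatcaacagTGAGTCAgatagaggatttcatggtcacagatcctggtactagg
*Trem2*, chr17:48346151-48346400, plus strand: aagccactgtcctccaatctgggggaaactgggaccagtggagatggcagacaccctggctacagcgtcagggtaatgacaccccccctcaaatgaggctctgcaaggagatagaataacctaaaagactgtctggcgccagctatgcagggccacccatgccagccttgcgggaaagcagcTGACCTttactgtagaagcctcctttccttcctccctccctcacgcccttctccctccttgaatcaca
*Dlk1*, chr12:109452573-109452822, plus strand: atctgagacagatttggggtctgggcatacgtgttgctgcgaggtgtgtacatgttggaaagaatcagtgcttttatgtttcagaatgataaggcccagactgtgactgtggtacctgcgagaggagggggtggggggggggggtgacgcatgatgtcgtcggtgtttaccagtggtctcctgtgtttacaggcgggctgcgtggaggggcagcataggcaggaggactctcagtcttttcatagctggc
*Mmp3* holds an AP-1 match on the minus strand 46 bases before its start. *Mmp12*, shown for the second of its listed starts, holds an AP-1 match on the minus strand 44 bases before it and AGGTCA on the minus strand 99 bases before it. *Trem2* holds AGGTCA on the minus strand 68 bases before its start. Neither motif is within the window of *Dlk1*. A match is a run of letters and not evidence of binding.

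In Cdh5+ cells arterial, venous and angiogenic genes held lower members, and capillary genes lay near 1. Of 8 arterial genes 5 were lower and none higher, where 4.91% and 2.28% of all genes were lower and higher. The list had a median log2 ratio of -1.33 beside -0.04 for all genes. This median was -1.28 in cells of this gate only and -1.2 without the shared cells. The gap junction genes *Gja5* and *Gja4* stood at 16.8 and 0.852 CPM (0.0508, 0.00604–0.190) and at 38.4 and 11.5 CPM (0.300, 0.192–0.451). The Notch target *Hey1* stood at 92.4 and 32.0 CPM (0.346, 0.267–0.443), the semaphorin *Sema3g* at 49.9 and 18.8 CPM (0.376, 0.266–0.521), and *Fbln5*, an elastic fibre protein, at 119 and 50.3 CPM (0.424, 0.345–0.518). Arterial genes were not all lower: *Sox17*, an arterial transcription factor, was at 128 and 217 CPM (1.70, 1.51–1.92), the Notch ligand *Dll4* at 56.2 and 41.3 CPM (0.735, 0.576–0.932) and *Efnb2* at 190 and 142 CPM (0.751, 0.660–0.852). Only 77 and 2 UMIs stand behind *Gja5*. Thinning to 1000 UMIs a cell left it no hypothyroid UMI, so its thinned ratio of 0.902 is an upper bound and gives no direction.

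Venous and adhesion genes of Cdh5+ cells were lower in 5 of 11 cases and higher in 1, with a median log2 ratio of -0.71, where 4.91% and 2.28% of all genes were lower and higher. *Vwf*, the clotting factor stored by endothelium, stood at 83.5 and 31.5 CPM (0.378, 0.290–0.486), and *Plvap*, which spans the diaphragms of fenestrated vessels, at 92.7 and 27.7 CPM (0.299, 0.227–0.389). *Selp*, a leukocyte adhesion receptor, stood at 362 and 138 CPM (0.381, 0.337–0.430), with 92.0% of its hypothyroid UMIs in 1 cell, and the chemokine sink *Ackr1* at 32.0 and 11.5 CPM (0.359, 0.229–0.544) with 81.5% in 1 cell. Those cells were among the shared ones, and without them *Selp* was at 0.0171 and *Ackr1* at 0.0772. *Vcam1*, an adhesion molecule of inflamed endothelium, was the higher gene at 78.1 and 161 CPM (2.06, 1.78–2.39). *Icam1* was at 542 and 453 CPM (0.836, 0.777–0.898).

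Of 15 angiogenic genes 3 were lower in Cdh5+ cells, where 4.91% of all genes were lower. The apelin receptor *Aplnr*, found on sprouting and venous endothelium, stood at 93.1 and 17.5 CPM (0.188, 0.133–0.259), its ligand *Apln*, a tip cell gene, at 15.7 and 3.41 CPM (0.217, 0.0903–0.451), and *Vegfc*, a lymphatic growth factor, at 29.7 and 11.1 CPM (0.374, 0.236–0.572), or 0.501 without the shared cells. The VEGF receptors *Flt1* and *Kdr* were at 834 and 809 CPM (0.970, 0.917–1.03) and at 470 and 407 CPM (0.867, 0.802–0.936). None of 12 capillary lipid uptake genes passed 2-fold, and their median log2 ratio was 0.05. *Fabp4*, a fatty acid binding protein, was at 6116 and 6717 CPM (1.10, 1.08–1.12), the fatty acid transporter *Cd36* at 1190 and 1495 CPM (1.26, 1.2–1.31), the water channel *Aqp1* at 1205 and 1020 CPM (0.847, 0.807–0.889) and *Gpihbp1*, which anchors lipoprotein lipase, at 484 and 495 CPM (1.02, 0.953–1.10). *Pecam1* was at 728 and 667 CPM. *Cdh5* was at 1268 and 1171 CPM, but it is the gene that chose these cells, so its level is no separate measure of them.

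The basement membrane genes of Cdh5+ cells had a median log2 ratio of -0.74, with *Col18a1*, the endostatin precursor, at 144 and 51.1 CPM (0.356, 0.291–0.433), *Col15a1* at 315 and 153 CPM (0.485, 0.431–0.545), or 0.542 without the shared cells, and the vessel collagen *Col4a1* at 2425 and 1339 CPM (0.552, 0.531–0.575). Of 10 fibrillar collagens 5 were lower as well, beside 4.91% of all genes, *Col1a1* among them at 2439 and 950 CPM (0.390, 0.372–0.408). In the same cells the summed FAP markers were at 10508 and 6191 CPM, and their part in the collagen difference was not tested. The muscle fibre genes named in this set were lower too, such as *Myh4*, the fast IIb myosin, at 188 and 14.1 CPM (0.0749) and *Pvalb* at 706 and 89.5 CPM (0.127).

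Most genes named on the higher side in Cdh5+ cells were myeloid. *Cd14*, the endotoxin coreceptor, stood at 22.2 and 402 CPM (18.1, 14.7–22.4), the cathepsin gene *Ctss* at 15.7 and 222 CPM (14.2, 11.1–18.4), and *Trem2*, a lipid receptor of macrophages, at 4.36 and 71.2 CPM (16.3, 10.2–27.4). *Lyz2* RNA itself was found in 55 of 854 control and 50 of 312 hypothyroid Cdh5+ cells, which is 6.44% (4.89–8.30) and 16.0% (12.1–20.6). In cells that passed the *Cdh5* gate and no other, *Cd14* was at 1.41 (0.582–3.23) on 18 and 10 UMIs and *Ctss* at 7.62 (1.90–43.8) on 3 and 9 UMIs. *Gpnmb*, a glycoprotein of repair macrophages, was then at 2.54 (0.999–6.46) on 11 and 11 UMIs, instead of 12.5. Without the shared cells *Ctss* was at 28.9, *Gpnmb* at 27.8 and *Trem2* at 34.9. All 6 MHC class II genes that reached the limit were higher in Cdh5+ cells, where 2.28% of all genes were higher. Their median log2 ratio was 2.0, and this median was -0.43 in cells of this gate only. Of the 216 higher genes, 110 stayed past 2-fold in those cells and 160 stayed above 1, whereas 389 of the 465 lower genes stayed past 2-fold. *Sln* stood at 10.5 and 214 CPM (20.4, 15.2–28.1), with 69.3% of its hypothyroid UMIs in 1 cell, and at 5.08 without the shared cells.

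Repair macrophages take up debris and lipid and carry the receptors and enzymes for it. Of 12 such genes in Lyz2+ cells, listed as resident and repair macrophage genes, 6 were higher and none lower, beside 3.06% and 4.04% of all genes. The list had a median log2 ratio of 0.66, and of 1.0 with at least 10 *Lyz2* UMIs. *Gpnmb* stood at 69.3 and 762 CPM (11, 9.01–13.6), in 29 of 265 control and 125 of 330 hypothyroid cells, and was 9.73-fold higher with the stricter gate. *Trem2* stood at 71.3 and 436 CPM (6.12, 5.00–7.54), *Spp1* (osteopontin) at 54.2 and 337 CPM (6.23, 4.95–7.93), and *Fabp5*, a fatty acid carrier, at 232 and 1242 CPM (5.36, 4.79–6.01). *Apoe* and *Lgals3* (galectin-3), found in most of the cells, stood at 4976 and 12418 CPM (2.5, 2.43–2.56) and at 1968 and 4635 CPM (2.36, 2.26–2.45). Without the shared cells the ratios were 10.8 for *Gpnmb*, 6.64 for *Trem2*, 8.04 for *Spp1* and 8.0 for *Fabp5*. Thinning to 1000 UMIs a cell lowered them to 4.37, 2.18, 4.27 and 3.76, and with the stricter gate *Apoe* was at 1.97, short of 2-fold. *Mmp12*, the macrophage elastase, stood at 36.4 and 795 CPM (21.9, 16.7–29.3), with 52.3% of its hypothyroid UMIs in 1 cell and 98.1% of its control UMIs in 1 cell.

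Lysosomal genes of Lyz2+ cells had a median log2 ratio of 0.83 over 13 genes, all of them above 1, from 1.05 to 3.55. Past 2-fold were 3 of them, beside 3.06% of all genes. *Ctss* stood at 350 and 1242 CPM (3.55, 3.23–3.90), the asparaginyl protease *Lgmn* at 213 and 457 CPM (2.14, 1.89–2.43) and *Ctsl* at 745 and 1497 CPM (2.01, 1.88–2.15), 1.61 without the shared cells. Complement C1q, which tags dead cells for uptake, followed, with *C1qa* at 469 and 961 CPM (2.05, 1.89–2.23), *C1qb* at 608 and 1513 CPM (2.49, 2.31–2.68) and *C1qc* at 322 and 786 CPM (2.44, 2.21–2.70). With at least 10 *Lyz2* UMIs they were at 1.59, 1.91 and 1.89, short of 2-fold. None of 6 MHC class II genes passed 2-fold in Lyz2+ cells, where *Cd74*, the invariant chain, was at 6398 and 6622 CPM (1.03, 1.01–1.06).

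Inflammatory genes of Lyz2+ cells went both ways. *Il1b* stood at 211 and 562 CPM (2.66, 2.35–3.01) and *Nlrp3*, the inflammasome sensor that matures its protein, at 24.7 and 69.7 CPM (2.82, 1.97–4.15), and *Il1a* at 2.74 and 45.7 CPM (16.7, 6.35–62.0). *Ccr2*, the receptor that brings monocytes from blood, was lower at 36.4 and 13.4 CPM (0.369, 0.237–0.568), and at 0.537 without the shared cells. The neutrophil attractant *Cxcl3* stood at 403 and 1294 CPM (3.21, 2.94–3.51), and the interferon-induced genes *Ifit2* and *Ifit3* at 32.2 and 86.2 CPM (2.67, 1.95–3.73) and at 94.0 and 208 CPM (2.21, 1.83–2.68). Of 16 interferon-stimulated genes 3 were higher, beside 3.06% of all genes. The list had a median log2 ratio of 0.74, although *Ifitm3* was at 1312 and 1176 CPM (0.897, 0.848–0.949). The growth factor *Vegfa* stood at 231 and 494 CPM (2.14, 1.90–2.41), 1.53 without the shared cells. *Ucp2*, a mitochondrial carrier that macrophages express, stood at 139 and 294 CPM (2.11, 1.81–2.48).

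Division genes gave large ratios on few cells. Of 12 genes of DNA replication and mitosis in Lyz2+ cells 8 were higher, beside 3.06% of all genes. Their median log2 ratio was 2.31, but the median was 0.22 without the shared cells and -0.36 after thinning. *Cenpf*, a kinetochore protein, held 1 control UMI and 107 hypothyroid UMIs, 89.7% of them in 1 cell, and *Mki67* was found in 3 and 10 cells. *Pcna*, the replication clamp, found in 112 and 185 cells, was at 120 and 141 CPM (1.18, 0.983–1.41).

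The 10 lower genes named in Lyz2+ cells held genes of fibres and blood in 7 cases. The other 3 were *Spon2*, a secreted matrix protein, at 83.7 and 9.28 CPM (0.111, 0.0702–0.169), *Gm13889* at 193 and 25.8 CPM (0.133, 0.102–0.172) and the lectin gene *Chodl* at 139 and 24.1 CPM (0.174, 0.130–0.229). For *Gm13889*, 60.6% of the control and 41.3% of the hypothyroid UMIs lay in 1 cell each. *Chodl* was on the other side of 1 in the stricter gates, at 1.83 with 2 *Lyz2* UMIs and 2.45 with 10. *Myh4* stood at 239 and 14.4 CPM (0.0603, 0.0427–0.0832), with 51.3% of its control UMIs in 1 cell. *Pvalb* stood at 630 and 80.7 CPM (0.128, 0.111–0.148) and *Pgam2*, the muscle phosphoglycerate mutase, at 177 and 24.4 CPM (0.138, 0.104–0.180). *Hbb-bs* stood at 1738 and 132 CPM (0.0757, 0.0678–0.0844), but 83.1% of the control and 93.7% of the hypothyroid UMIs lay in 1 cell each, and its ratio was 0.228 without the shared cells, 1.52 at 2 *Lyz2* UMIs and 3.47 at 10. *Hba-a1* and *Hba-a2* crossed 1 in the same way.

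The 3 gated sets come from the same libraries and share cells. They counted 9964 genes in Pdgfra+Dcn+, 9463 in Cdh5+ and 7707 in Lyz2+ cells. Of these, 1.26%, 2.28% and 3.06% were higher and 6.20%, 4.91% and 4.04% lower. In the 3 sets, 22 genes were higher and 84 lower in each set. The higher ones were *Apoe*, *Baiap2l1*, *C1qa*, *C1qb*, *C1qc*, *Capn6*, *Ccl5*, *Cd14*, *Cd52*, *Ctss*, *Dlk1*, *H19*, *Il1b*, *Il1rl1*, *Lgals3*, *Mmp12*, *Mmp3*, *Ms4a7*, *Slc7a2*, *Sln*, *Trem2* and *Tyrobp*. Many are macrophage genes, and RNA of *Lyz2* was found in 14.2% of hypothyroid and 4.97% of control Pdgfra+Dcn+ cells. The others include FAP genes: *Dlk1* was 9.58-fold higher in Pdgfra+Dcn+ cells, 5.74-fold in Cdh5+ cells and 8.72-fold in Lyz2+ cells, but 9.50, 1.59 and 16.1 in cells of 1 gate only, and *H19* was 2.51, 2.99 and 3.08 and then 2.38, 1.05 and 0.883. *Il1rl1*, the IL-33 receptor, stood at 607 and 1278 CPM (2.11, 2.03–2.19) in Pdgfra+Dcn+ cells and was 1.93 without the shared cells, and in Lyz2+ cells these ratios were 2.18 and 0.738. *Mmp3* turned over without the shared cells in both other sets, from 7.90 to 0.166 in Cdh5+ cells and from 2.53 to 0.184 in Lyz2+ cells, with 6 and 12 hypothyroid UMIs left, and stayed at 3.42 in Pdgfra+Dcn+ cells. Leaving the shared cells out, 19 of the 22 higher genes stayed past 2-fold in all 3 sets, the others being *Ccl5*, *Il1rl1* and *Mmp3*, and so did 69 of the 84 lower genes. The 84 lower genes hold the fast fibre genes, the tendon genes *Scx* and *Tnmd*, the matrix genes *Mgp*, *Col15a1*, *Adamts2* and *Loxl3*, the smooth muscle genes *Myh11* and *Tagln* and the chaperones *Hspa1a* and *Hspa1b*. With those cells left out *Hspa1a* was at 0.726 in Cdh5+ and 0.607 in Lyz2+ cells, *Hspa1b* at 0.537 in Lyz2+ cells, and *Adamts2* at 0.584 and *Mgp* at 0.519 in Cdh5+ cells, all short of 2-fold. Genes past 2-fold in only 1 of the 3 sets were 76 higher and 402 lower in Pdgfra+Dcn+ cells, 133 and 249 in Cdh5+ cells and 157 and 151 in Lyz2+ cells. Whether the sets differ at these genes was not tested.

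In all cells together the ratios also carry the change in the makeup of the suspension. In all cells *Mmp12* stood at 8.38 and 202 CPM (24.1, 20.3–28.8) and *Trem2* at 6.56 and 98.4 CPM (15.0, 12.3–18.4), beside the higher share of Lyz2+ cells. For *Mmp12*, 45.6% of the hypothyroid UMIs lay in 1 cell. *Myh8*, the perinatal myosin, stood at 0.668 and 21.9 CPM (32.7, 18.0–66.3), in 8 control and 67 hypothyroid cells, with 45.6% of the hypothyroid UMIs in 1 cell, and was 7.36-fold higher without the shared cells. *Apoc1*, an apolipoprotein, and *F7*, a clotting factor, stood at 0.182 and 10.4 CPM (56.9, 19.1–279; 20.3 without the shared cells) and at 0.486 and 10.7 CPM (22, 10.8–51.9). *Apoc1* held 3 control and 136 hypothyroid UMIs, with 71.3% of the hypothyroid UMIs in 1 cell. Of 7 markers of T and NK cells 6 were higher, beside 3.71% of all genes, with a summed level of 69.0 and 277 CPM. An example is the T-cell receptor chain *Cd3e* at 5.59 and 34.2 CPM (6.13, 4.89–7.75) in 49 and 127 cells. Among the lowest were the haemoglobins, with *Hbb-bs* at 2254 and 131 CPM (0.0582, 0.0554–0.0611) and *Hbb-bt* at 365 and 11 CPM (0.0301, 0.0253–0.0355; 0.0809 without the shared cells), and *Nmrk2* held 165 and 0 UMIs, at most 0.0228 of control. Neutrophil RNA was scarce in both libraries, and *S100a9* held 87 and 0 UMIs, at most 0.0433. The mural gene *Rgs5*, a pericyte marker, stood at 1207 and 438 CPM (0.363, 0.352–0.373). Lower were also 5 of 8 arterial genes, beside 5.97% of all genes, namely *Gja5*, *Sema3g*, *Gja4*, *Hey1* and *Dll4*.

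The same contrast was set beside the uninjured muscle and the muscle at 5 dpi, with 1 library a side on each day. Of the 2428 control cells at 5 dpi, 528 also stand in another file, so the values at 5 dpi are given for all cells and then without those 528. Of the 126 genes higher in Pdgfra+Dcn+ cells at 14 dpi, 35 reached 50 UMIs in uninjured muscle and 10 of them (28.6%) were higher there too, against 1.96% of all genes counted there. At 5 dpi 116 reached 50 UMIs and 38 (32.8%) were higher, against 2.88%, or 37 of 115 (32.2%) against 3.08% without the 528. Of the 618 lower genes, 43 of 306 (14.1%) were lower in uninjured muscle, against 3.05%, and 110 of 471 (23.4%) at 5 dpi, against 8.88%, or 105 of 459 (22.9%) against 8.55%. *Dlk1* was at 0.885 (0.464–1.59) in uninjured muscle and 2.63 (2.28–3.04) at 5 dpi, *Apoe* at 3.13 (2.79–3.51) and 5.31 (4.81–5.88), and *Apod* at 2.13 (2.05–2.21) and 2.01 (1.90–2.14), beside 9.58, 3.70 and 2.27 at 14 dpi. *Mmp3* went the other way at 5 dpi, at 0.231 (0.212–0.252), and *Ccl2* was at 0.626 (0.608–0.645) and 4.11 (4.05–4.18) before 2.0 at 14 dpi. *Postn*, 2.36-fold higher at 14 dpi, was at 0.915 (0.900–0.930) at 5 dpi. Without the 528 cells the ratios at 5 dpi were 3.06 for *Dlk1*, 6.92 for *Apoe*, 2.08 for *Apod*, 0.251 for *Mmp3*, 4.21 for *Ccl2* and 0.947 for *Postn*.

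**Figure D5:**
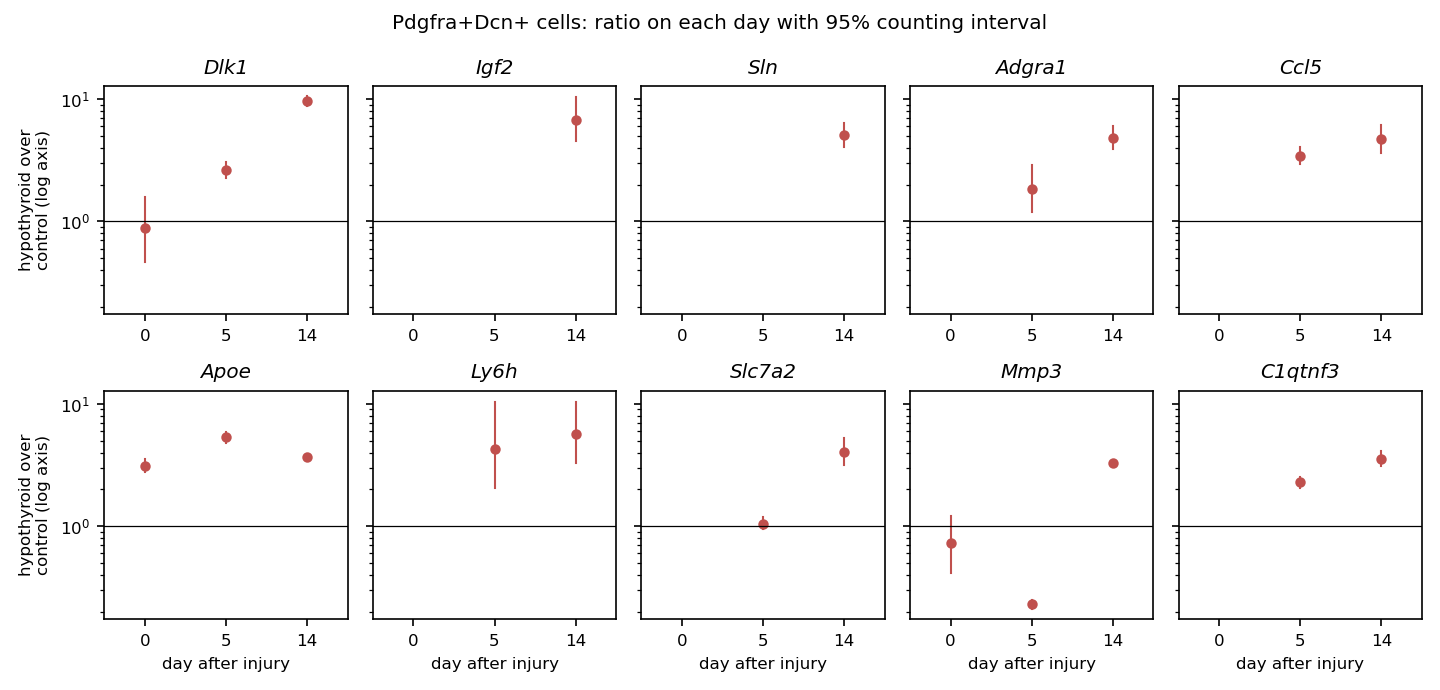
Ratio of hypothyroid over control CPM, on a log axis, of the 10 higher genes named in Pdgfra+Dcn+ cells, for the 3 days sampled (0 for uninjured muscle, 5 and 14 dpi), shown where a gene held at least 50 UMIs, with 95% intervals of counting error. *Apoe* was above 3 on each day, *Dlk1* was at 0.885, 2.63 and 9.58, and *Mmp3* was at 0.231 at 5 dpi and 3.28 at 14 dpi.

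In Cdh5+ cells at 5 dpi, 57 of the 106 higher genes that could be counted (53.8%) were higher, against 5.92% of all genes, and 38 of 118 lower genes (32.2%) were lower, against 13.6%. Without the 528 cells it was 55 of 104 (52.9%) against 6.30%, and 32 of 102 (31.4%) against 12.9%. *Hey1* was at 0.443 (0.286–0.668) at 5 dpi, *Sema3g* at 0.141 (0.0501–0.323) and *Aplnr* at 0.308 (0.191–0.479), and without the 528 cells at 0.536, 0.136 and 0.281, so *Hey1* was then short of 2-fold. The 24 hypothyroid Cdh5+ cells of uninjured muscle are too few for a like comparison. In Lyz2+ cells at 5 dpi, 37 of 224 higher genes (16.5%) were higher, against 4.69%, and 49 of 239 lower genes (20.5%) were lower, against 11.9%, or 41 of 224 (18.3%) against 5.37% and 49 of 232 (21.1%) against 11.9% without the 528 cells. *Trem2* was at 2.27 (2.11–2.44) at 5 dpi, *Gpnmb* at 1.15 (1.10–1.2), *Fabp5* at 1.37 (1.34–1.4) and *Spp1* at 0.704 (0.690–0.717), or 2.59, 1.31, 1.63 and 0.795 without the 528 cells. Uninjured muscle held 2 control and 9 hypothyroid Lyz2+ cells and gives no value.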

How the data were processed

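Single cells of 6 libraries were captured and sequenced by the authors, with Cell Ranger, Partek and the mm39 build named in the submitters' processing notes, and the deposited values are log2(CPM + 1) for each cell and 12436 genes. UMI counts were recovered from the deposited log2 values by taking the most frequent value of a cell as 1 UMI, and 99.934% of the values then lay within 0.05 of a whole number. The files hold 20269 columns in repeated runs, and the 9062 columns after the first run of each file were not used, since the condition they belong to is not given. The study states limits on UMIs and genes per cell that the deposited cells exceed, with 492 to 37456 UMIs in control and 497 to 46562 in hypothyroid cells. No doublet removal was applied.

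UMIs were summed over the cells of each set (Python 3.11.15, numpy 2.4.6, pandas 2.3.3, figures with matplotlib 3.10.9), and ratios of CPM were given an exact conditional binomial 95% interval, and shares a Clopper-Pearson interval (scipy 1.17.1). Set totals were 7035133 and 6648535 UMIs for Pdgfra+Dcn+ cells, 4586778 and 2346102 for Cdh5+ cells, and 1457740 and 2910602 for Lyz2+ cells. A count of 0 was replaced by 3 for a bound. Named genes were the 10 (5 in all cells) with the largest ratio each way, ranked by the interval end nearest 1, among genes past 2-fold with UMIs in at least 20 cells of the higher pool, plus from each gene list the called members and the 4 with most UMIs. With 1 library a side no test was made. The members and lists were chosen with earlier results of these data known. The ratio procedure was tested on simulated pooled counts that held counting error only. The simulation did not gather UMIs in single cells, so it cannot speak for intervals of genes held by few cells.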

Additional observations from a re-analysis of the deposited data

Results flagged for a closer look

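Of the genes counted, 17 were past 2-fold in opposite directions in 2 cell sets, 7 of them with UMIs in at least 20 cells of the higher pool in both sets, and the difference between the sets was not tested. Only the 7 are described. The GTPase regulator *Arap1* was at 2.26 in Cdh5+ cells and 0.476 in Pdgfra+Dcn+ cells, and the deubiquitinase gene *Otud1* at 2.19 and 0.366. The giant sarcomere genes *Neb* and *Ttn* were at 2.21 and 2.94 in Cdh5+ cells, where 1 hypothyroid cell held 72.5% and 49.1% of their UMIs, and at 0.389 and 0.398 in Pdgfra+Dcn+ cells. *Ttn* was at 3.34 in Lyz2+ cells, with 52.0% of its hypothyroid UMIs in 1 cell. *Smc2*, a condensin subunit, was at 2.54 in Cdh5+ and 6.37 in Lyz2+ cells and at 0.488 in Pdgfra+Dcn+ cells, where it held 52 and 24 UMIs. A single cell held 54.2% of its hypothyroid UMIs in Cdh5+ cells and 58.4% in Lyz2+ cells, where control held 7 UMIs. *Atp6v0a1*, a proton pump subunit, was at 2.68 in Lyz2+ cells and 0.479 in Pdgfra+Dcn+ cells. *Wfs1*, an endoplasmic reticulum membrane protein, was at 2.73 in Lyz2+ cells and 0.434 in Cdh5+ cells.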

How the results depend on the processing

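No paired analysis was possible because each diet has 1 pooled library. Fewer UMIs per set widen every interval, and no alternative stands in for replicate mice. Counts after thinning hold only genes that reach 50 UMIs in the smaller thinned pools. Counts of genes past 2-fold moved by over 1.5 times as follows, higher then lower. In Pdgfra+Dcn+ cells (126 and 618) they were 191 and 974 at 20 UMIs, 60 and 200 at 200 UMIs, 1130 and 86 with means of log2 values, 63 and 183 after thinning, 412 and 1788 at 1.5-fold and 39 and 163 at 3-fold, and 37 higher with all columns. In Cdh5+ cells (216 and 465) they were 376 and 778, 58 and 147, 55 and 181 after thinning, 570 and 1267, and 112 and 149, with 70 lower by log2 means, 83 higher in cells of 1 gate and 123 higher with all columns. In Lyz2+ cells (236 and 311) they were 466 and 679, 95 and 77, 462 and 38 by log2 means, 55 and 49 after thinning, 73 and 146 with all columns, 614 and 991, and 79 and 105. In all cells (443 and 712) they were 233 and 399 at 200 UMIs, 225 and 343 after thinning, 193 and 442 with all columns, 771 and 1840, and 199 and 250, with 61 lower by log2 means. The ratio of shares of Pdgfra+Dcn+ cells was 0.884 after thinning, on the other side of 1, 1.39 at 2 UMIs and 1.07 with all columns, and with all columns that of Cdh5+ cells was 0.909 and that of Lyz2+ cells 2.0. All columns adds only 2801 control columns, whose condition is not known, and takes *Dlk1* in all cells to 2.56, *Mmp12* to 5.39 and *Trem2* to 2.45. Some list medians crossed 0. That of the *Npy* and *Cnr1* list was -0.69 without the shared cells in Pdgfra+Dcn+ cells, over genes that still reached 50 UMIs. With both genes kept it was 0.46. By log2 means it was 0.01 in Cdh5+ cells, where only *Npy* reached 50 UMIs. MHC class II in Cdh5+ cells of 1 gate was at -0.43, and the mitosis genes of Lyz2+ cells at -0.36 after thinning. *Mmp27* in Pdgfra+Dcn+ cells held no hypothyroid UMI after thinning, so its thinned ratio of 1.0 is an upper bound and gives no direction. At 2 and at 10 *Lyz2* UMIs, the second chosen after seeing the data, *Hbb-bs* was at 1.52 and 3.47, *Hba-a1* at 2.01 and 6.15, *Hba-a2* at 1.48 and 3.82, *Chodl* at 1.83 and 2.45, and the haemoglobin median at 0.81 and 2.11. The cause of these changes was not tested. Of the list medians 1233 moved by less than 0.25 on the log2 scale, 385 by more, and 6 of those past 2-fold crossed 0. Leaving out shared cells at 5 dpi and from the genes called in all 3 sets was also chosen after seeing the data.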

Other observations

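A list of imprinted genes was drawn up after the values of *Dlk1*, *Igf2* and *H19* had been seen, so it gives values and no support. In Pdgfra+Dcn+ cells 6 of 16 were higher, where 1.26% of all genes were. They were *Dlk1*, *Igf2*, *H19*, *Cdkn1c*, the transcription factor *Plagl1* at 189 and 389 CPM (2.06, 1.93–2.21) and *Mest* at 108 and 220 CPM (2.04, 1.87–2.23). *Snrpn*, a splicing factor, was lower at 6.11 and 1.35 CPM (0.221). The median log2 ratio was 0.35 there, 0.19 over 15 genes in Cdh5+ cells and 0.53 over 13 genes in Lyz2+ cells.

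Myosin heavy chains were also listed after their values were seen. In Cdh5+ cells the embryonic *Myh3* was at 0.654 and 77.1 CPM, in 7 hypothyroid cells of which 1 held 80.1% of the UMIs, and the perinatal *Myh8* was found in 13 hypothyroid cells of which 1 held 81.4%. In all cells *Myh3* was at 0.547 and 17.8 CPM, and at a ratio of 3.15 without the shared cells, while the adult fast *Myh4* was at 273 and 34.9 CPM (0.128).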
